A study of Xenopus laevis with 8 samples.

Results

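Cell cycle and DNA replication genes were followed in foregut endoderm of the frog Xenopus laevis, cultured with or without its mesoderm. A list of 60 genes was matched to the gene names in the deposited annotated table, token by token, without regard to case and with a trailing -A or -B dropped. The match found 37 probe sets of 25 listed genes among the 15491 probe sets tested, and these are the members described here. By role they are 17 probe sets of 11 replication genes (mcm, orc, rfc, pcna and rrm genes), 3 of the replication licensing genes cdt1 and gmnn, 6 of 5 cyclin genes, 1 of wee1, and 10 of 6 mitosis genes. The names did not match 35 listed genes, of which 26 were found under older names and are described after the members. All 37 carry a listed gene's name in the table, and the names of 7 match a second RefSeq gene as well. These are wee1 (also wee2), both tpx2 probe sets (also dph2), and ccnb1, mcm3 and both mcm6 probe sets, whose second match is a gene of like name.

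DNA replication starts where the origin recognition complex and Cdt1 load the Mcm helicase onto DNA, a step that geminin, the product of gmnn, blocks outside its window. The clamp loader (Rfc proteins) then sets the Pcna ring on the DNA, polymerases copy it, and ribonucleotide reductase (Rrm1 and Rrm2) supplies the deoxynucleotides. Cyclins D and E lead cells into replication and cyclin B into mitosis, where kinetochore, spindle and checkpoint proteins part the chromosomes. In the frog embryo the first cleavages run on maternal stores, and later cycles are slower and have gap phases.

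Foregut explants were taken at stage 15 and kept until stage 23 in 0.5X MBS, a frog saline. With mesoderm, the explant stayed intact and its endoderm was isolated at the end of culture. Alone, the endoderm was isolated at the start. Presence of mesoderm and time of isolation cannot be told apart in this design. Each condition has 4 samples, numbered set 1 to set 4, with 1 Affymetrix array each, made from 5 ug of total RNA. The labels give no genotype, treatment agent or pooling, and do not say whether a set is a clutch, a day or a batch, so the spread between samples may be technical.

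Values are RMA intensities, a brightness per probe set, and differences are on the log2 scale, with mesoderm minus alone, so 1 unit is a 2-fold difference. The median intensity of the arrays lay between 127.5 and 131.2. Synthetic tag control probe sets, which match no frog transcript, averaged 4.67 to 5.22 log2 units per array, and 35 of the 37 members lay at 6 or above on average. The exceptions were wee1 and 1 of the 2 ccnd2 probe sets. The brightest tag control of each array read 6.12 to 6.77, so a mean just above 6 is not clear of the controls. The 2 arrays of a set deviated together from the means of their conditions, with correlations of 0.844, 0.850, 0.689 and 0.321 in sets 1 to 4, so each test is given without and with the set as a block. Set 4 stood apart: its differences had an SD of 0.528 over all probe sets, against 0.250, 0.312 and 0.331 in sets 1 to 3, and its tag controls differed by a median of 0.43 between the 2 arrays, against -0.11, 0.06 and -0.14 in sets 1 to 3. Where leaving out set 4 turned a printed difference or moved it by over 1.5 times, its value without set 4 is given too.

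Endoderm markers were present, with 7 of 9 probe sets at 6 or above and a summed intensity of 18558 to 21315 with mesoderm and 17789 to 23147 alone. All 7 probe sets of blood cell markers had a mean difference above 0, and limma called 0 of them without the block and 1, lcp1, with it. Their median was 0.71, with a summed intensity of 3089 to 7286 with mesoderm and 1140.0 to 3002 alone. Cardiac and lateral plate markers, 12 probe sets, had a median difference of 0.10 and sums of 955 to 1562 with mesoderm and 608 to 1332 alone. Somite and muscle markers, 8 probe sets, summed to 612 to 957 with mesoderm and 554 to 951 alone, with a median difference of 0.09. Neural markers had 5 of 5 probe sets above 0, with a median of 0.24 and sums of 461 to 618 with mesoderm and 223 to 957 alone. Epidermis markers had 3 of 3 above 0, with a median of 0.36 and sums of 124 to 157 with mesoderm and 105 to 135 alone. Both notochord probe sets lay above 0 in difference, with a median of 0.34, and below a mean level of 6. Of the blood probe sets 6 of 7 were at 6 or above, and of the cardiac and lateral plate ones 5 of 12. For somite and muscle it was 2 of 8, for neural 2 of 5 and for epidermis 1 of 3. The medians of the cardiac and lateral plate, somite and muscle, neural and epidermis lists therefore rest largely on dim probe sets. The part of cells of all these types in the members' values was not tested. In bulk RNA of this kind, fewer cells of a type and less RNA per cell cannot be told apart.

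The first question is whether any cell cycle or replication gene differed in the endoderm when mesoderm was present. None of the 37 members passed. The fit without the set block (limma, Benjamini-Hochberg adjustment over 15491 probe sets, called at an adjusted p under 0.05) called 0 members, against 0% of all probe sets higher and 0% lower. With the set as a block it again called 0 members, against 0.258% of all probe sets higher and 0.129% lower. The lowest adjusted p of a member in limma with the block was 0.353, for 1 of the 4 rrm1 probe sets. At an unadjusted p under 0.05, limma without the block had 0 members, against 1.31% of all probe sets higher and 1.17% lower. With the block it had 1 member higher, a pcna probe set, against 3.93% of all, and 3 members lower (ccnb1, ccnb3 and rrm1), against 5.42% of all. The 4 arrays with mesoderm and the 4 alone overlapped for every member, while they did not overlap for 1.03% of all probe sets, higher, and 0.859%, lower.

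Intervals for the mean difference were taken for each probe set on its own. Within sets, the 95% interval of the mean difference lay inside a 2-fold change either way for 37 of 37 members, against 97.4% of all probe sets. This was therefore not particular to the members, and for ccnd1 the interval reached 0.98. Member differences ran from -0.44 for ccnb1 to 0.42 for ccnd1, with a median of -0.05, beside a median of 0.01 over all probe sets. Of the members, 17 lay above 0 and 20 below, beside 7991 above and 7500 below over all. Of the 10476 probe sets at a mean of 6 or above, 4736 lay above 0 and 5740 below, with a median of -0.02. Without set 4 the members' median was 0.05, with 20 above 0 and 17 below, beside 7282 and 8209 over all, and 9 of the 37 differences changed sign. After cyclic loess normalization the members' median was 0.0018. A difference in the same direction in all 4 sets was seen for 6 members higher (3 of pcna, 2 of ccnd2 and bub3), against 8.35% of all probe sets, and for 8 members lower (ccnb1, ccnb3, cenpe, 1 of tpx2, gmnn, mcm7 and 2 of rrm1), against 10.3%. As shares of the members these are 16.2% and 21.6%. Of the probe sets at a mean of 6 or above, 8.58% were higher and 13% lower in all 4 sets. Probe sets of 1 gene share its transcripts and are not independent. After cyclic loess normalization between arrays, a count added after seeing the data, 6 members were higher in all 4 sets, against 10.3% of all probe sets, and 6 lower, against 10.2%.

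**Figure D1:**
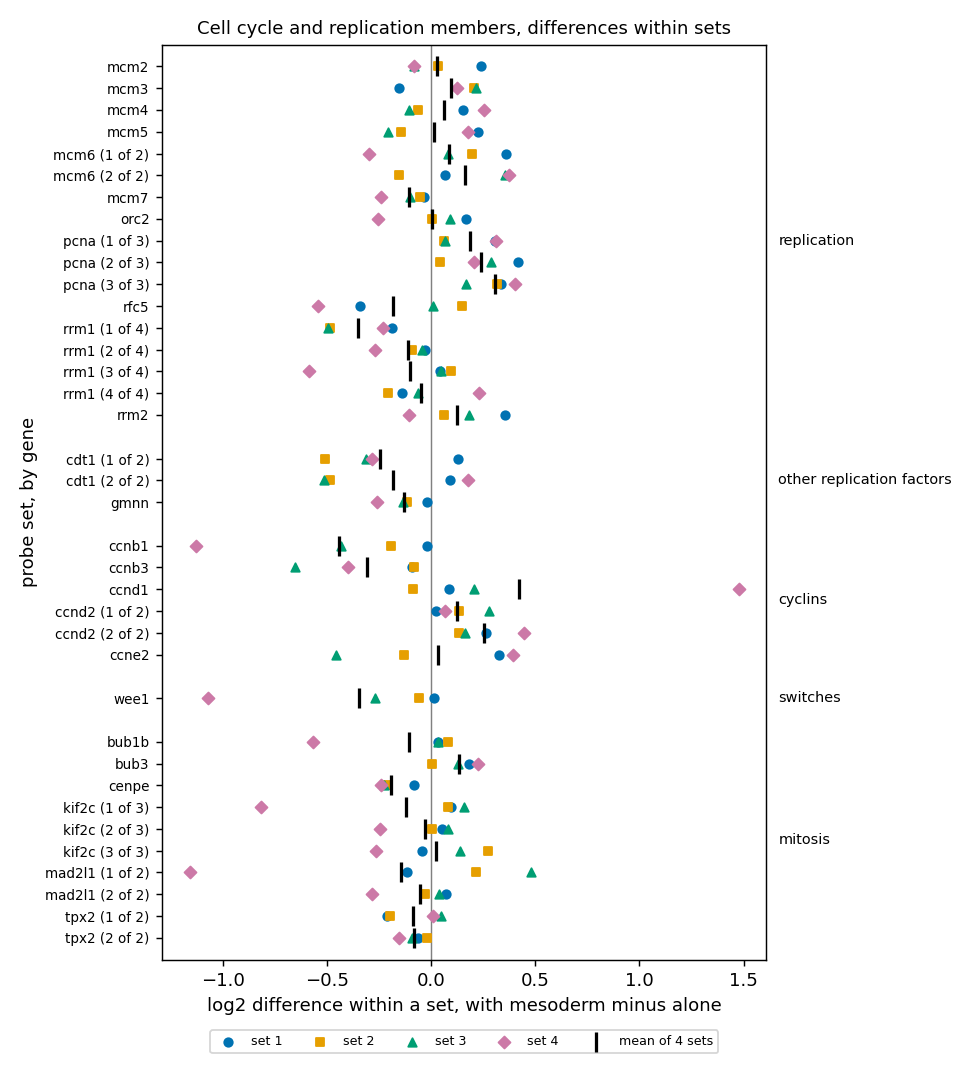
Differences of the 37 members within each set (x axis, log2, with mesoderm minus alone), 1 row per probe set in 5 role groups; coloured points are the 4 sets and the black bar is their mean. Means lie between -0.44 and 0.42, and the points of set 4 include the 4 differences over 1 log2 unit in size.

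Among replication genes, pcna, the sliding clamp that holds polymerases on DNA, had the highest differences with mesoderm. Its 3 probe sets were all higher with mesoderm in every set, and none passed the test. The probe set with the lowest unadjusted p read 1624, 3437, 2131 and 2724 in sets 1 to 4 with mesoderm, against 1286, 2758, 1901 and 2059 alone. The value with mesoderm was the higher one in each set, but set 2 was high and set 1 low in both conditions, so the groups overlapped. The difference was 0.31 ± 0.10 (SD of the 4 differences within sets), with a 95% interval within sets of 0.05 to 0.56 and an adjusted p of 0.415 in limma with the block. A dimmer pcna probe set read 142, 334, 148 and 181 with mesoderm and 106, 324, 121 and 157 alone, a difference of 0.24 ± 0.16. The third, named for a clone as well, read 1847, 2172, 1414 and 1954 with mesoderm and 1494, 2079.6, 1352 and 1574 alone, a difference of 0.19 ± 0.14. In both, set 2 was again the highest in each condition and the differences of set 2 were the smallest of the 4.

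The helicase subunits mcm2 to mcm7, 7 probe sets of 6 genes, differed little by condition. Their mean differences ran from -0.11 to 0.16 with a median of 0.06, and 6 of the 7 lay above 0, or 4 of the 7 without set 4. For mcm2, singled out after its values were seen, intensities were 575, 1112, 464 and 493 with mesoderm, against 487, 1089, 492 and 523 alone. Set 2 was the highest in both conditions by a wide gap, and the differences within sets ran from -0.08 to 0.24. Of the 7 only the mcm7 probe set was lower with mesoderm in all 4 sets, at 1131, 1342, 1249 and 718 with mesoderm and 1157, 1393, 1343 and 849 alone. Its difference was -0.11 ± 0.09 (adjusted p 0.841 in limma with the block), and -0.06 without set 4. Set 4 was the lowest for mcm7 in both conditions, and the groups overlapped. Orc2, a subunit of the origin recognition complex, had a mean difference of 0.002, with a 95% interval of -0.27 to 0.28, and 0.09 without set 4.

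Rfc5, a subunit of the clamp loader, read 98.1, 188, 78.2 and 167 with mesoderm and 124, 169, 77.6 and 244 alone. Sets 1 and 4 were lower with mesoderm and sets 2 and 3 were not, and the spread between sets within a condition was wider than the spread between conditions. Its difference was -0.18 ± 0.32, and -0.06 without set 4.

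Ribonucleotide reductase gave the member with the lowest adjusted p and also the widest disagreement between probe sets of 1 gene. The large subunit gene rrm1 has 4 probe sets. One of them read 198, 186, 150.4 and 138 with mesoderm, against 226, 261, 212 and 162 alone. It was lower with mesoderm in every set, and the groups overlapped. Its difference was -0.35 ± 0.16, its 95% interval -0.62 to -0.08, and its adjusted p 0.353 in limma with the block. Another rrm1 probe set read 1069, 982, 1160.2 and 1033 with mesoderm and 1179.7, 1134, 1215 and 883 alone, with set 4 higher and the other sets lower with mesoderm. Its difference was -0.05 ± 0.19, 0.30 log2 units above that of the first. Without set 4 it was -0.14. The remaining 2 had differences of -0.10 ± 0.33 and -0.11 ± 0.11, or 0.06 and -0.06 without set 4, so the sign of 1 of them rested on set 4. The small subunit gene rrm2 read 3343, 2554, 1324 and 1922 with mesoderm and 2611, 2445, 1166 and 2067 alone, a difference of 0.12 ± 0.19. It was higher with mesoderm in sets 1 to 3 and lower in set 4, and without set 4 the difference was 0.20. Like mcm7, rrm2 was singled out after its values were seen. Xenopus laevis has near-identical gene copies from a genome duplication, and whether these probe sets tell them apart is uncertain.

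Cdt1 and its inhibitor geminin, the licensing pair, all had mean differences below 0. The first cdt1 probe set read 587, 298, 542 and 475 with mesoderm and 538, 425, 673 and 578 alone, a difference of -0.24 ± 0.27. The second read 213, 139.9, 189 and 130.4 with mesoderm and 200.1, 196, 270.1 and 115 alone, a difference of -0.18 ± 0.37. In both, sets 2 and 3 were lower with mesoderm and set 1 was higher, while set 4 was lower in the first and higher in the second. Without set 4 the differences were -0.23 and -0.30. For gmnn the intensities were 436, 382, 376 and 302 with mesoderm, against 441, 413, 413 and 363 alone, a difference of -0.13 ± 0.10. It was lower in every set, by least in set 1 and most in set 4, with overlapping groups. The adjusted p in limma with the block was 0.658 and 0.799 for cdt1 and 0.794 for gmnn.

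The B-type cyclins, which pair with Cdk1 to drive entry into mitosis, included the lowest difference of all members. For ccnb1 the intensities were 625, 784, 1048 and 479.7 with mesoderm, against 633, 898, 1413 and 1051 alone. Set 1 was nearly equal in the 2 conditions, and set 4 differed most, where endoderm alone was at 1051 and endoderm with mesoderm at 479.7. The difference was -0.44 ± 0.49 (adjusted p 0.493 in limma with the block), and it was -0.21 without set 4. Ccnb3 read 870.5, 829.7, 1113 and 696 with mesoderm and 928, 880.2, 1754 and 919.6 alone, a difference of -0.31 ± 0.27 (adjusted p 0.534). It was lower with mesoderm in every set, most in set 3, where the array alone stood far above the other 3 arrays alone.

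Cyclins D1 and D2, partners of Cdk4 and Cdk6 in the first gap phase, lay on the other side of 0. Ccnd1 read 1269, 780.0, 878 and 1046 with mesoderm, against 1197, 828, 761 and 376 alone. The set 4 array alone was the lowest of the 8 by a wide gap, and the other sets differed by 0.08, -0.09 and 0.21. The mean difference of 0.42 ± 0.71 therefore rested on 1 array, and without set 4 it was 0.07. Ccnd2 had 1 probe set at 111, 91.0, 101 and 77.0 with mesoderm and 109, 82.9, 83.4 and 73.6 alone, a difference of 0.12 ± 0.11, and a second, below a mean of 6, with a difference of 0.25 ± 0.14. Both were higher with mesoderm in all 4 sets, with adjusted p of 0.808 and 0.563 in limma with the block. Ccne2, which pairs with Cdk2 at the start of replication, read 106, 68.9, 96.0 and 111 with mesoderm and 84.7, 75.4, 132 and 84.8 alone. It was higher with mesoderm in sets 1 and 4 and lower in sets 2 and 3, for a difference of 0.03 ± 0.40, and -0.09 without set 4.

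Wee1, the kinase that holds Cdk1 inactive before mitosis, was found as 1 dim probe set, at 32.9, 50.9, 79.3 and 47.0 with mesoderm and 32.5, 53.0, 95.5 and 98.7 alone. Sets 1 and 2 differed little, and sets 3 and 4 were lower with mesoderm, with differences of -0.27 and -1.07. The mean difference of -0.35 ± 0.50 became -0.10 without set 4. Its name in the table is a wee1 name paired with a wee1B name, and RefSeq gives wee1B as a synonym of wee2 also, so which of the 2 kinases it reads is in doubt.

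The mitosis genes had small differences as well, and 8 of the 10 probe sets had a mean below 0, beside 7500 of 15491 over all. Of the 10476 probe sets at a mean of 6 or above, 5740 did. Without set 4, 3 of the 10 did (cenpe and both of tpx2), beside 8209 over all. Cenpe, a kinetochore motor, read 622, 718, 503 and 587 with mesoderm, against 659, 831, 589 and 695 alone. It was lower in every set, by a like amount in sets 2 to 4, for a difference of -0.19 ± 0.07 and an adjusted p of 0.675 in limma with the block, the lowest of the mitosis group. Bub3, a spindle checkpoint protein, was the mitosis gene higher in all 4 sets, at 1440.2, 1085, 1011 and 881 with mesoderm and 1271, 1083, 926 and 755 alone, a difference of 0.13 ± 0.09. In both conditions set 1 was its highest and set 4 its lowest.

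Bub1b, another checkpoint protein, read 410.3, 521, 468 and 348 with mesoderm and 402, 493, 458 and 515 alone, a difference of -0.11 ± 0.31. Only set 4 was lower with mesoderm, and without it the difference was 0.05. Kif2c, a motor that takes microtubules apart, has 3 probe sets with differences of -0.12 ± 0.46, -0.03 ± 0.15 and 0.03 ± 0.23. The first read 205, 277, 155 and 170.5 with mesoderm, against 192, 262, 139 and 300.1 alone. Again set 4 was lower with mesoderm and sets 1 to 3 were slightly higher, and without set 4 the 3 differences were 0.11, 0.05 and 0.12.

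Tpx2, a spindle assembly factor, has a bright probe set at 715, 726, 733 and 495 with mesoderm and 746, 737, 782 and 552 alone, a difference of -0.08 ± 0.06. Set 4 was low in both conditions, and each set was slightly lower with mesoderm. Its dim probe set read 97.3, 99.4, 98.6 and 111 with mesoderm and 113, 114, 95.3 and 111 alone, a difference of -0.09 ± 0.14, and did not have the low set 4. Of the 2 probe sets of mad2l1, another checkpoint gene, 1 read 45.2, 105, 90.1 and 48.3 with mesoderm and 49.0, 90.4, 64.7 and 108 alone. It was higher with mesoderm in sets 2 and 3 and lower in sets 1 and 4, and its difference of -0.15 ± 0.72 was 0.19 without set 4. The other, brighter one differed by -0.05 ± 0.16, and by 0.03 without set 4. Mad2l1 was singled out after its values were seen.

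The replication and mitosis groups were compared next. Over the 4 sets, the 17 replication probe sets had a median difference of 0.03, with 11 above 0, and the 10 mitosis probe sets one of -0.09, with 2 above 0, beside 0.01 over all probe sets. For the probe sets at a mean of 6 or above the median was -0.02. By set, the replication median was 0.15, 0.03, 0.05 and -0.08 in sets 1 to 4, and the mitosis median was -0.0070, 0.0035, 0.06 and -0.26. The replication median minus the mitosis median was therefore 0.16, 0.03, -0.02 and 0.17, above 0 in 3 of 4 sets. Without set 4 the medians were 0.06 for replication and 0.05 for mitosis, beside -0.01 over all probe sets. In set 4, 8 of the 10 mitosis probe sets were lower with mesoderm, beside 7082 of 15491 over all. Of the 10476 probe sets at a mean of 6 or above, where all 10 lie, 5988 were lower in that set. Of the members, 4 differed by more than 1 log2 unit in set 4 (ccnb1, ccnd1, wee1 and 1 of mad2l1), against 5.62% of all probe sets. In sets 1 to 3, 0 members did so. The share of all probe sets is not given there, and the SDs over all were 0.250, 0.312 and 0.331, so the 0 is not particular to the members. Set 4 held the largest of the 4 differences for 23 of 37 members, beside 55.7% of all probe sets. Over the 10476 probe sets at a mean of 6 or above the median difference in set 4 was -0.09. After cyclic loess the replication median of that set was 0.15, so its sign turned, and the mitosis median was -0.12. Over the 4 sets the medians were then 0.06 for replication and -0.05 for mitosis.

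Many members differed between the 4 sets. In the F test of the 3 set terms (limma, adjusted p under 0.05), 19 of 37 members passed, or 51.4%, against 30.7% of all probe sets and 39.7% of those at a mean of 6 or above. In the replication group 12 of 17 passed and in the mitosis group 3 of 10. Of the 7 mcm probe sets 6 passed. The count of 19 rested on the sets fitted: without set 2 it was 4, and without sets 1, 3 and 4 in turn it was 6, 10 and 27. The share of all probe sets passing with a set left out is not given, so these shifts cannot be called particular to the members. Averaged over both conditions, all 7 mcm probe sets were highest in set 2, where 25.9% of all probe sets, and 34.3% of those at 6 or above, were highest. The set mean of mcm2 spanned 2.3-fold between its lowest and its highest set, with an adjusted p of 0.0055 in limma. For the pcna probe set with the lowest p between sets the span was 2.68-fold (adjusted p 0.0037). All 3 pcna probe sets were also highest in set 2.

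Other members followed other orders of sets. In the replication group 12 of 17 probe sets were highest in set 2, among them the 7 of mcm genes, and in the mitosis group 7 of 10. Kif2c was the mitosis gene with the lowest p between sets, with a span of 1.85-fold (adjusted p 0.02 in limma), highest in set 2 and lowest in set 3. Rrm2 and orc2 were highest in set 1, rfc5 was highest in set 4 with a span of 2.59-fold (adjusted p 0.0076), and none of these 3 followed the mcm genes. Cdt1 was highest in set 3 in both of its probe sets, and so were ccnb1 and ccnb3. Median levels of the replication group, relative to each probe set's own mean, were -0.06, 0.43, -0.20 and -0.17 in sets 1 to 4. Those of the mitosis group were -0.0042, 0.29, -0.11 and 0.0014, and those of all probe sets 0.02, -0.05, 0.04 and 0.03. What a set stands for is not given in the labels.

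**Figure D2:**
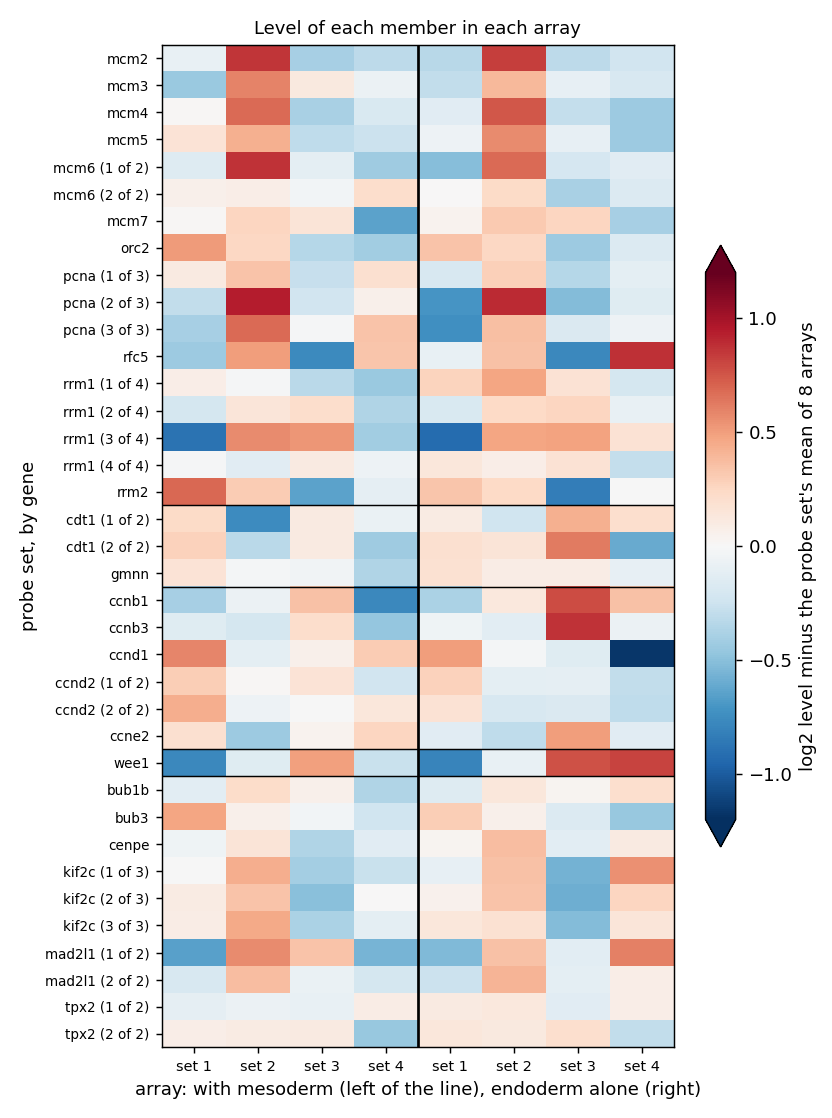
Level of each member in each of the 8 arrays, as log2 intensity minus the probe set's mean of 8 arrays (colour, red above and blue below), with arrays with mesoderm left of the line and arrays alone right of it. Set 2 is the reddest column of most mcm and pcna rows on both sides of the line.

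**Figure D3:**
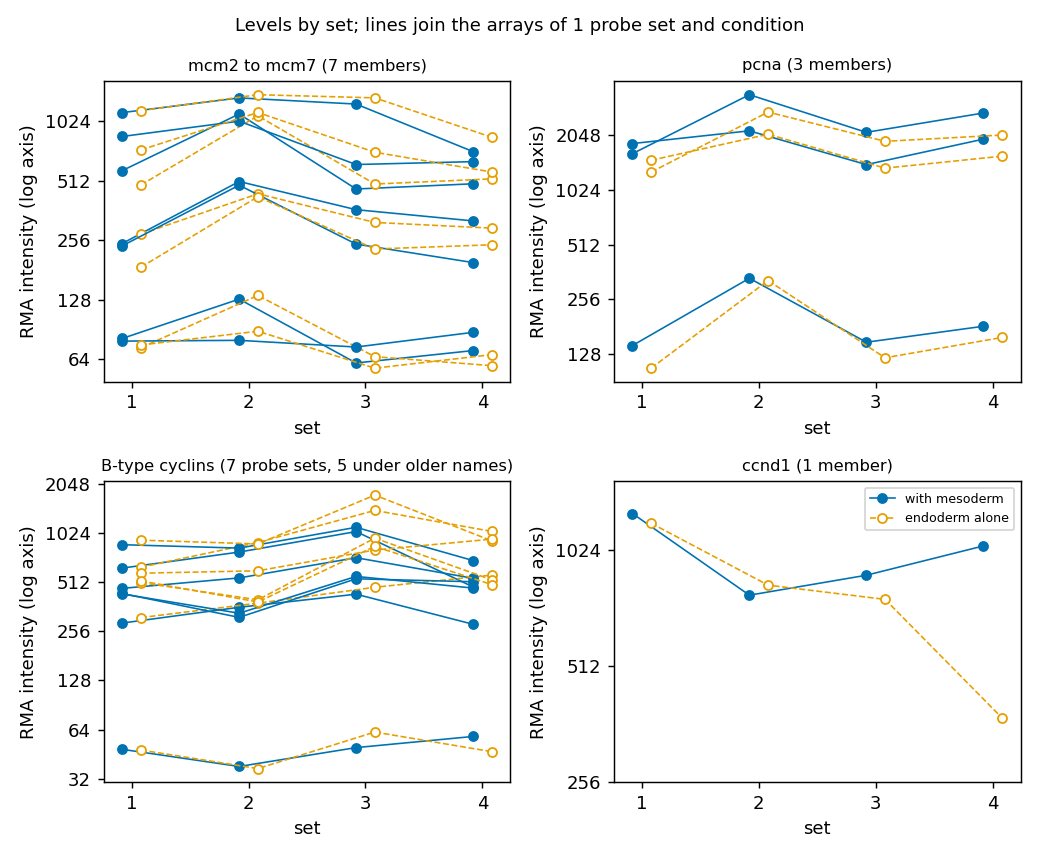
RMA intensity (log axis) by set, with mesoderm (filled, solid line) and alone (open, dashed line), for mcm genes, pcna, B-type cyclins and ccnd1; lines only join the arrays of 1 probe set, since sets have no order. Mcm2 reads 1112 with mesoderm and 1089 alone in set 2, and the set 4 array alone is the lowest for ccnd1, at 376.

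Of the 35 listed genes that the name match missed, 26 were found when names were carried through RefSeq gene IDs or unambiguous synonyms, a step chosen after seeing the data. With further probe sets of genes already found, this gave 49 probe sets of 34 genes. No probe set could be assigned in this way to 9 genes (cdk1, cdk4, cdc25b, cenpa, rfc1, rfc3, rfc4, pold1 and rpa2). These 49 are no members, and they are read here as the rest of the listed genes. In limma 0 of the 49 were called without the block and 0 with it, where the lowest adjusted p was 0.353, for chek1. Their median difference was -0.12, with 9 above 0 and 40 below. Over all probe sets 7991 lay above 0 and 7500 below, and at a mean of 6 or above 4736 and 5740. Without set 4 the median of the 49 was -0.08, with 14 above 0 and 35 below. At an unadjusted p under 0.05 with the block there were 0 higher and 8 lower, against 3.93% and 5.42% of all probe sets. In all 4 sets 1 was higher and 17 were lower. The 17 are 34.7% of the 49, against 10.3% of all probe sets and 13% of those at a mean of 6 or above, where 8.58% were higher. After cyclic loess 11 of the 49 were lower in all 4 sets, against 10.2% of all probe sets. Their median was then -0.10, beside 0.0023 over all. No test was made of these counts, since the genes were listed with earlier results known and several have more than 1 probe set.

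The genes behind these counts, named after their values were seen, fall into 4 roles. Of the 17 probe sets lower in all 4 sets, 7 were of cyclins, 6 of mitosis genes, 3 of chek1 and wee1 and 1 of a replication gene. Plk1, a kinase that acts throughout mitosis, was lower with mesoderm in all 4 sets in its 3 probe sets, with differences of -0.20 ± 0.05, -0.28 ± 0.16 and -0.26 ± 0.07. The first read 984, 1051, 884 and 868 with mesoderm and 1085, 1232, 1018 and 1028 alone. Cdc20, which activates the ubiquitin ligase that ends mitosis, read 568, 452, 418 and 341 with mesoderm, against 641, 537, 573 and 475 alone. It was lower in every set, with overlapping groups, a difference of -0.34 ± 0.15 and an adjusted p of 0.364 in limma with the block. The condensin subunits ncapd2 and smc4, which compact chromosomes, were lower in all 4 sets too, with differences of -0.32 ± 0.25 and -0.23 ± 0.14, or -0.20 and -0.16 without set 4.

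Among cyclins found under older names, the 2 probe sets of ccnb2 had differences of -0.35 ± 0.31 and -0.33 ± 0.45, or -0.20 and -0.11 without set 4. The 2 further probe sets of ccnb3 had differences of -0.36 ± 0.34 and -0.29 ± 0.23. With the 2 members, the B-type cyclins had 7 probe sets of 3 genes, of which 6 were lower in all 4 sets; the remaining one, a dim ccnb1 probe set, differed by 0.01 ± 0.26, and by -0.09 without set 4. Their median difference was -0.33, and -0.21 without set 4. After cyclic loess 4 of the 7 were lower in all 4 sets, against 10.2% of all probe sets, and the median was -0.29. None of the 7 passed limma with the block, where the lowest adjusted p was 0.478. Averaged over conditions, all 7 were highest in set 3, where 25.1% of all probe sets were.

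Chek1, the checkpoint kinase that restrains Cdk1 activation when DNA is damaged, read 209, 129.5, 116 and 88.8 with mesoderm and 225, 190.3, 159 and 114 alone in 1 of its 2 probe sets. It was lower with mesoderm in each set, for a difference of -0.37 ± 0.19. The groups did not overlap for 1 of the 49, lower with mesoderm, against 0.859% of all probe sets lower and 1.03% higher. This was a probe set that RefSeq names place with wee1, at 2536, 2452, 1932 and 2409.8 with mesoderm and 2645, 2951, 3435 and 2537 alone. Its highest array with mesoderm and lowest array alone were next to equal, and the difference of -0.31 ± 0.36 had an adjusted p of 0.614 in limma with the block. In the other direction 1 of the 2 probe sets of aurka, a spindle kinase, was higher in all 4 sets, with a difference of 0.12 ± 0.07, while the other differed by -0.14 ± 0.39, and by 0.05 without set 4.

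**Figure D4:**
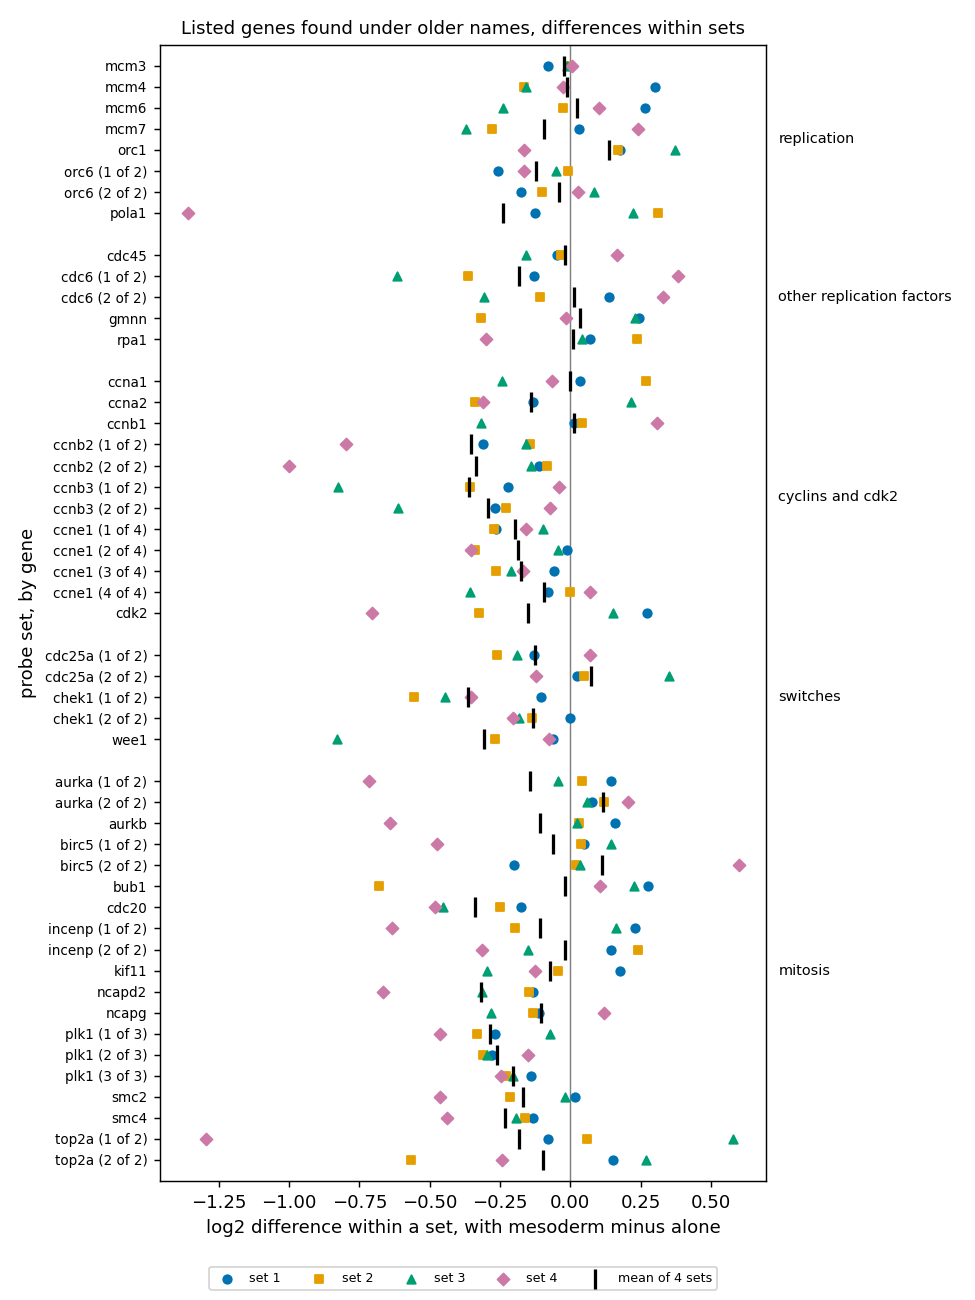
Differences within each set (x axis, log2, with mesoderm minus alone) for the 49 probe sets of listed genes found under older names, 1 row each, in 5 role groups; points are the 4 sets and the black bar is their mean. Means lie between -0.37 and 0.14, 40 of them below 0.

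Between sets, 17 of these 49 passed the F test in limma, or 34.7%. Of all probe sets 30.7% passed, and of those at a mean of 6 or above 39.7%. The widest span was that of a probe set of birc5, which encodes a subunit of the chromosomal passenger complex, at 93.6, 81.2, 281 and 95.9 with mesoderm and 90.6, 79.2, 254 and 133 alone. It stood high in set 3 in both conditions, 3.33-fold above its lowest set. Aurkb, the kinase of that complex, was instead highest in set 2 in both conditions, at 496, 950.2, 659 and 453 with mesoderm and 444, 930.4, 648 and 706 alone. Mcm4, under a further name, read 281, 517, 204 and 227 with mesoderm and 228, 580.1, 228 and 231 alone, again highest in set 2, as its member probe set was.

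For 3 further probe sets the table gave a listed gene only under an older name that RefSeq pairs with 2 genes, and these were counted in neither list. One, cdc2, may stand for cdk1 or pold1. It read 483, 491, 513 and 425 with mesoderm and 507, 527, 674 and 621 alone, a difference of -0.28 ± 0.23 (adjusted p 0.564 in limma with the block). All 4 sets were lower with mesoderm, sets 3 and 4 most. Another, wee1B, may stand for wee1 or wee2, and read 1326, 931, 1218 and 963 with mesoderm and 1335, 1258, 1878 and 1275 alone. It was lower with mesoderm in all 4 sets, with a mean difference of -0.37 ± 0.26 (adjusted p 0.41 in limma with the block). Mad2 is a name paired with mad2l1 and smad2, but the table also names this probe set MADH2, an older symbol of smad2. It is therefore more likely smad2 than a listed gene. This probe set differed by -0.02 ± 0.32, below 0 in sets 1 and 4 and above 0 in sets 2 and 3. Without set 4 its difference was 0.12.

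Other cell cycle genes, a list of 163 that leaves out the 60, gave 46 probe sets of 37 genes. The names of 6 of these match a second RefSeq gene, among them rfc2, which is also an older name of the listed gene rfc4. In limma 0 of the 46 were called without the block and 0 with it, and their median difference was 0.0013, with 24 above 0 and 22 below. The 3 with the lowest p on the higher side were nek6, a mitotic kinase, and both probe sets of mycn, a transcription factor of proliferating cells. Nek6 read 171, 172, 107 and 108 with mesoderm, against 111, 120.1, 52.3 and 118 alone. It was higher in sets 1 to 3 and lower in set 4, for a difference of 0.51 ± 0.47 and an adjusted p of 0.392 in limma with the block. The brighter mycn probe set read 671, 439, 174 and 189 with mesoderm and 678, 450.1, 125 and 51.3 alone, where set 4 alone was the lowest array, as it was for ccnd1. The 2 mycn differences were 0.58 ± 0.90 and 0.50 ± 0.79, and 0.14 and 0.16 without set 4.

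On the lower side were mad2l2, a subunit of a repair polymerase, and tacc3, a spindle protein. Mad2l2 read 416, 287, 265 and 219.6 with mesoderm and 449, 357, 315 and 295 alone, and tacc3 read 151, 223, 133 and 166 with mesoderm and 170.1, 269.9, 152 and 214 alone. Both were highest in the same set in each condition, set 1 for mad2l2 and set 2 for tacc3, and the groups overlapped. The differences of mad2l2 and tacc3 were -0.28 ± 0.13 and -0.25 ± 0.09, each lower in all 4 sets (adjusted p 0.493 and 0.532 in limma with the block). Between sets, 21 of the 46 passed the F test in limma, or 45.7%. Of all probe sets 30.7% passed, and of those at a mean of 6 or above 39.7%.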

How the data were processed

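Total RNA of 8 endoderm samples, 4 per condition, was hybridised to Affymetrix arrays. The deposited values are RMA values per the submitters' processing notes, and the authors' annotated table gives them as linear intensities. The version of RMA is not given in the sources used here. The table's header line lists 2 data sets, so other arrays may have been processed with these. The deposited series matrix was identical in 124888 of 124888 cells. The table held 15611 probe sets, and 120 controls were left out. No reads lie behind these values, and precision rests on the number of arrays.

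Log2 was taken of each intensity, and limma 3.58.1 (lmFit, eBayes) in R 4.3.3 compared the conditions over 15491 probe sets, with Benjamini-Hochberg adjustment and no block. The set as a block was the alternative; the pairing was checked from the arrays' deviations and taken as given, since all 4 correlations were over 0.1. The fits were run on simulated data with planted changes larger than any mean difference of a member. That run did not test whether differences of the members' size would be found. The members and lists were chosen with earlier results of these data known. Values in every array are given for up to 5 members per role with the lowest p within sets and a mean of at least 6, the lowest p between sets per role, and the 3 genes whose probe sets differed most; values of other genes were chosen after they were seen. Alternatives were random set effects, cyclic loess, quantile and median scaling, a filter at 6, trended variance, array weights, 1 value per gene, other thresholds and leaving out arrays or sets. Names came from the table and from RefSeq, 27 older-name probe sets by gene ID and 22 by synonym. No sequences or positions are given. One of the other cell cycle genes that the naming rule selected is left out here.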

Additional observations from a re-analysis of the deposited data

Results flagged for a closer look

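Within a condition, 6 of 46 groups of 4 arrays of the named probe sets had 1 array whose gap to the nearest other, over the whole range, passed Dixon's 95% critical value. For independent groups chance gives about 1 in 20. These groups share arrays and sets, and some probe sets were chosen for a low p between sets, so that rate is no yardstick here. Tpx2 accounted for 4 of the 6. Its bright probe set was lowest in set 4 in both conditions, at 495 with mesoderm and 552 alone. Its dim probe set was highest in set 4 with mesoderm, at 111, and lowest in set 3 alone, at 95.3. A kif2c probe set was lowest in set 3 alone, at 160.4, and ccnb3 was highest in set 3 alone, at 1754.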

How the results depend on the processing

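No member was called under any setting run, with 0 of 37 in each. The count over all 15491 probe sets, 0 without the block, was 60 with the replicate block, 82 with the set as a random effect, 21 with the block after cyclic loess, and 293 when called by groups that do not overlap. Leaving out 1 array or 1 set gave 0 to 1, and with the block 0 to 275, with 275 without set 4, 12 without set 3, 2 without set 1 and 0 without set 2. With the block, leaving out 1 set gave 0 to 1 calls among the other cell cycle genes, the 1 without set 4. The 19 members called between sets became 4 to 27 with 1 set left out, the lowest without set 2 (6 without set 1 and 10 without set 3), and fewer arrays were then fitted. Whether the share of all probe sets moved alike is not given. The replication median ran from -0.13 to 0.23 with 1 array or set left out. With a whole set left out it ran from -0.016 to 0.063. It was -0.13 without set 2 with mesoderm, 0.13 without set 4 with mesoderm and 0.23 without set 2 alone.

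None of the 23 named differences was called in any setting run. The lowest adjusted p in limma was 0.305 over the settings for which single p values were kept. Trended variance, array weights and the block with 1 set left out or after cyclic loess are not among these. After cyclic loess and after quantile normalization, kif2c (the _a_at probe set) became 0.0018 and 0.012 and rrm1 (the second of its probe sets) 0.0033 and 0.0100. With 1 array or set left out, differences crossed 0 for bub1b (-0.20 to 0.047), bub3 (-0.0022 to 0.25), ccne2 (-0.088 to 0.21), the 3 kif2c probe sets (-0.23 to 0.14, -0.33 to 0.11 and -0.14 to 0.16), the dimmer pcna probe set (-0.037 to 0.58), rfc5 (-0.47 to 0.080), the second rrm1 probe set (-0.15 to 0.0063) and the bright tpx2 probe set (-0.20 to 0.054). Leaving out 1 array also breaks the pair of its set. With a whole set left out, 4 of these did not cross 0. They were bub3 (0.10 to 0.18), the dimmer pcna probe set (0.18 to 0.30), rfc5 (-0.29 to -0.061) and the bright tpx2 probe set (-0.10 to -0.059). The others named here crossed 0 then too. The cause was not tested. Of the other settings, 127 of the summary values and 383 of the single differences kept their direction or moved by less than the spread. With 4 arrays a condition, differences of the members' size may have gone undetected, and the smallest detectable difference was not tested. The intervals given are for each probe set on its own, without adjustment, so they do not set that limit. The 2 members below a mean of 6, wee1 and 1 of ccnd2, lay near the tag controls. Probe sets of mad2l1 (6.15), mcm6 (6.24), mcm4 (6.33), ccnd2 (6.49), ccne2 (6.54) and tpx2 (6.71) also had means below the brightest tag control, at 6.77.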
